A study of Mus musculus with 10 samples.

Results

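The genes examined here serve protein folding in the endoplasmic reticulum (ER) and the unfolded protein response, and were read across 3 groups of salivary gland arrays from NOD/shiLtJ mice. They are a list of 38 genes given by name, made up of stress sensors, transcription factors, chaperones, disulfide isomerases, ER-associated degradation genes, a translocon and an ER export subunit, and targets of the PERK-ATF4 branch. Each gene was read from the brightest of the probe sets that the array's annotation gives to that gene alone, and 37 of the 38 had such a probe set, out of 18826 genes tested on the arrays. Pdia4, a disulfide isomerase, lies on a probe set shared with a microRNA gene and is given no value. All 37 were above the median of their array in every array, so the filter on low values removed none of them.

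Salivary gland cells came from female mice of this inbred strain, in which type 1 diabetes and inflammation of the salivary glands arise spontaneously. The groups were 21-week-old mice labelled with type 1 diabetes (4 arrays, called diabetic below), 21-week-old mice labelled as having no diabetes (3 arrays) and 6-week-old mice of the same strain without diabetes (3 arrays). In all 3 groups the glands were made into filtered cell suspensions with dispase II plus collagenase IV before RNA was taken, and no transgene or drug is labelled. The labels number the samples within a group but do not say whether each is 1 mouse, a pool or a repeat, nor which gland was taken, so p-values measure the spread between these arrays.

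Values are log2 intensities, so a difference of 1 is a doubling, and levels of different genes cannot be compared because each has its own probes. The third nondiabetic 21-week array stood apart over all probe sets (its correlations with other arrays were 0.901 to 0.930, while pairs among the remaining 9 had 0.940 to 0.975). As a coarse check of the labelled tissue, 7 acinar genes (Pip and Aqp5 among them) averaged 9.59 to 10.06 in arrays whose medians over all probe sets were 3.53 to 3.69. The mean over 6 exocrine pancreas genes was 3.24 to 3.68 in the same arrays. Because probes differ between genes, these means only place each list against the array median and give no relative amounts. The groups differed in gland type markers. The 6 parotid-type serous cargo genes summed to 61.7 to 64.4 in diabetic arrays, against 25.7 to 40.1 in nondiabetic 21-week and 29.1 to 52.0 in 6-week arrays, and 6 of 6 rose in diabetic against nondiabetic 21-week arrays. The 11 granular convoluted tubule genes, which mark the submandibular gland, summed to 46.5 to 65.9 in diabetic arrays, against 92.5 to 99.7 in nondiabetic 21-week and 79.1 to 84.8 in 6-week arrays, and 10 of 11 fell in diabetic against nondiabetic 21-week arrays. Between the nondiabetic groups 10 of these 11 were higher at 21 weeks without overlap, against 4.11% of all genes (median 1.33), though 0 rose. The parotid-type genes had a median of -1.62 there, with 0 that fell and 0 without overlap. The 8 sublingual mucous genes summed to 56.1 to 59.3 in diabetic, 28.9 to 56.7 in nondiabetic 21-week and 48.2 to 54.7 in 6-week arrays. Gland type markers thus moved with all 3 comparisons below, and their part in the results was not tested. In such bulk samples fewer cells of a type and less RNA per cell cannot be told apart.

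Proteins bound for secretion are folded in the ER by chaperones of the Hsp70 and Hsp90 families, by lectin chaperones that bind their sugar chains and by disulfide isomerases. When unfolded protein builds up, 3 membrane sensors respond: IRE1 (gene Ern1) splices the Xbp1 mRNA, PERK (Eif2ak3) phosphorylates eIF2-alpha and so favours translation of ATF4, and ATF6 is cut to release a transcription factor. Their targets add chaperones, degradation machinery and, through ATF4, amino acid supply. Salivary acinar cells make large amounts of secreted protein and depend on this machinery, as do antibody-secreting plasma cells.

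Part of this response is written in the promoters, through the ER stress response element (ERSE), at which NF-Y and ATF6 or XBP1 bind. RefSeq promoter windows of GRCm38.p6, from 250 bases before to 50 after the start site, were found for 33 of the 38 genes. The ERSE, searched on both strands as CCAAT, any 9 bases and CCACG, was in the windows of 9 of these 33 genes (27.3%). Among all 27025 genes with a window the share was 0.137%. The related ERSE-II, searched as ATTGG, any base and CCACG, was in the windows of 2, against 0.0444% of all genes with a window. The list was made of known targets of this response, so the excess describes the list. The stretches below are shown because they are ERSE matches of chaperones, of an isomerase (Pdia6), of a degradation ligase (Syvn1) and of the 1 gene past the test that has such a match (Derl3), with the motif in capitals and 10 bases on each side, 5′ to 3′ on the gene's strand. Where the capitals begin with CGTGG the motif reads on the opposite strand.
Hspa5 (GRCm38.p6 chr2:34772015-34772053, + strand): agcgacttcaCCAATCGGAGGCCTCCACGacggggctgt
Hsp90b1, farther match (chr10:86705628-86705666, - strand): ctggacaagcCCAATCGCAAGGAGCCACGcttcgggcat
Hsp90b1, nearer match (chr10:86705523-86705561, - strand): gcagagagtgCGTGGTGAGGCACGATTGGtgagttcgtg
Calr (chr8:84847065-84847103, - strand): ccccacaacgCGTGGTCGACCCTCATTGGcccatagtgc
Canx (chr11:50325790-50325828, - strand): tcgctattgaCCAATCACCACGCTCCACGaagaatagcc
Pdia6 (chr12:17266481-17266519, + strand): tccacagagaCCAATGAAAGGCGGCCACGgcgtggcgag
Syvn1 (chr19:6046522-6046560, + strand): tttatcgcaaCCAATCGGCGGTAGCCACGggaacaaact
Derl3 (chr10:75893232-75893270, + strand): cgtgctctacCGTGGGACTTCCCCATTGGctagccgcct

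The ERSE was also matched in Creld2 and Dnajc3, and ERSE-II in Herpud1 and Dnajb11. The amino acid response element letters TTGCATCA, bound by ATF4 with a partner, were in the windows of Chac1 and Herpud1 (0.895% of all windows), and TGACGTGG, the unfolded protein response element bound by XBP1, was in that of Sec24d (0.676%). The whole windows of the 3 genes whose level passed the test in any comparison follow. Capitals mark an ERSE or, in Ppp1r15a, the cyclic AMP response element TGACGTCA (1.79% of all windows), which was searched for after the values were seen.
Xbp1 (GRCm38.p6 chr11:5520391-5520690, + strand): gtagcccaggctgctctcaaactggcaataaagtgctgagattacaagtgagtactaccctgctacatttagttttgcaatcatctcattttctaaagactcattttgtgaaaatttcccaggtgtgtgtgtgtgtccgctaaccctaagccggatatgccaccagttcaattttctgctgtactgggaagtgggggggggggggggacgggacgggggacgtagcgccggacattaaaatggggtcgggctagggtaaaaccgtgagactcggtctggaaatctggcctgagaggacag
Ppp1r15a (chr7:45526219-45526518, - strand): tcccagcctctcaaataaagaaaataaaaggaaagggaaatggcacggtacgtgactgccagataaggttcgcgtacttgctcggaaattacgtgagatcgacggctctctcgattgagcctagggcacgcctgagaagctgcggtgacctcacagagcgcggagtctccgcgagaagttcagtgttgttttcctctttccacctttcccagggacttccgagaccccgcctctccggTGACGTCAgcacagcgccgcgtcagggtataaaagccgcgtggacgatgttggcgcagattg
Derl3 (chr10:75893148-75893447, + strand): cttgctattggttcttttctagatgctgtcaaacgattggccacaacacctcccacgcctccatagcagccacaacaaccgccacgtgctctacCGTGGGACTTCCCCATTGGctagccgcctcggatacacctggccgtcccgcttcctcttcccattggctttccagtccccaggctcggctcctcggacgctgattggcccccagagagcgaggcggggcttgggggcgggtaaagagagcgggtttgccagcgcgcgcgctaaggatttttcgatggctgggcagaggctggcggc

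With the main settings, Xbp1 and Ppp1r15a passed as higher in diabetic than in nondiabetic arrays at 21 weeks. The large chaperones did not differ beyond their spread. Neither call was stable, as Xbp1 kept it in 12 and Ppp1r15a in 9 of 21 alternative settings, and gland type markers also differed between these groups. By limma, with Benjamini-Hochberg adjustment over all 18826 genes and a threshold of 0.05, 2 of the 37 ER genes rose, 0 fell and 35 did not pass, against 1.44% of all genes called (1.1% higher and 0.34% lower). The 2 are 5.41% of the list. At an unadjusted p under 0.05 there were 8 of 37 (21.6%), against 15.8% of all genes. Of these 6 were higher and 2 lower, against 10.8% and 5.04% of all genes. For 3 genes (8.11%) the groups had no overlapping array, against 14.1% of all genes, 2 higher (9.11% of all genes) and 1 lower (4.98%). The median difference was 0.07 for the ER genes and 0.03 for all genes. Of the 37 estimates 25 were above 0, against 10545 of the 18826 for all genes. On these counts the ER genes lay near the background of the arrays, and the results are those of single genes.

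Ages without diabetes were compared in 21-week against 6-week nondiabetic glands, whose gland type markers also differed. By limma 0 of 37 ER genes passed, against 0.0266% of all genes (5 genes, 0.00531% higher and 0.0212% lower). At an unadjusted p under 0.05, 4 of 37 were lower and 0 higher (10.8%), against 7.47% of all genes, 5.27% lower and 2.19% higher. The groups did not overlap for 4, all lower (10.8%), against 13.8% of all genes, 9.73% lower and 4.11% higher. The median was -0.07 for the ER genes and -0.06 for all genes. Diabetic 21-week against 6-week glands, which differ in both age and diabetes, gave 1 gene that rose (Xbp1) and 1 that fell (Derl3), again 5.41% against 1.44% of all genes (0.903% higher and 0.542% lower). Here 10 of 37 (27%) had an unadjusted p under 0.05, 5 in each direction, against 14.9% of all genes (7.7% higher and 7.23% lower). For 9 genes (24.3%), 4 higher and 5 lower, the groups did not overlap, against 16.7% of all genes (8.2% higher and 8.49% lower). The 3 comparisons share arrays pairwise, so a value that recurs in 2 of them is not a repeat.

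**Figure D1:**
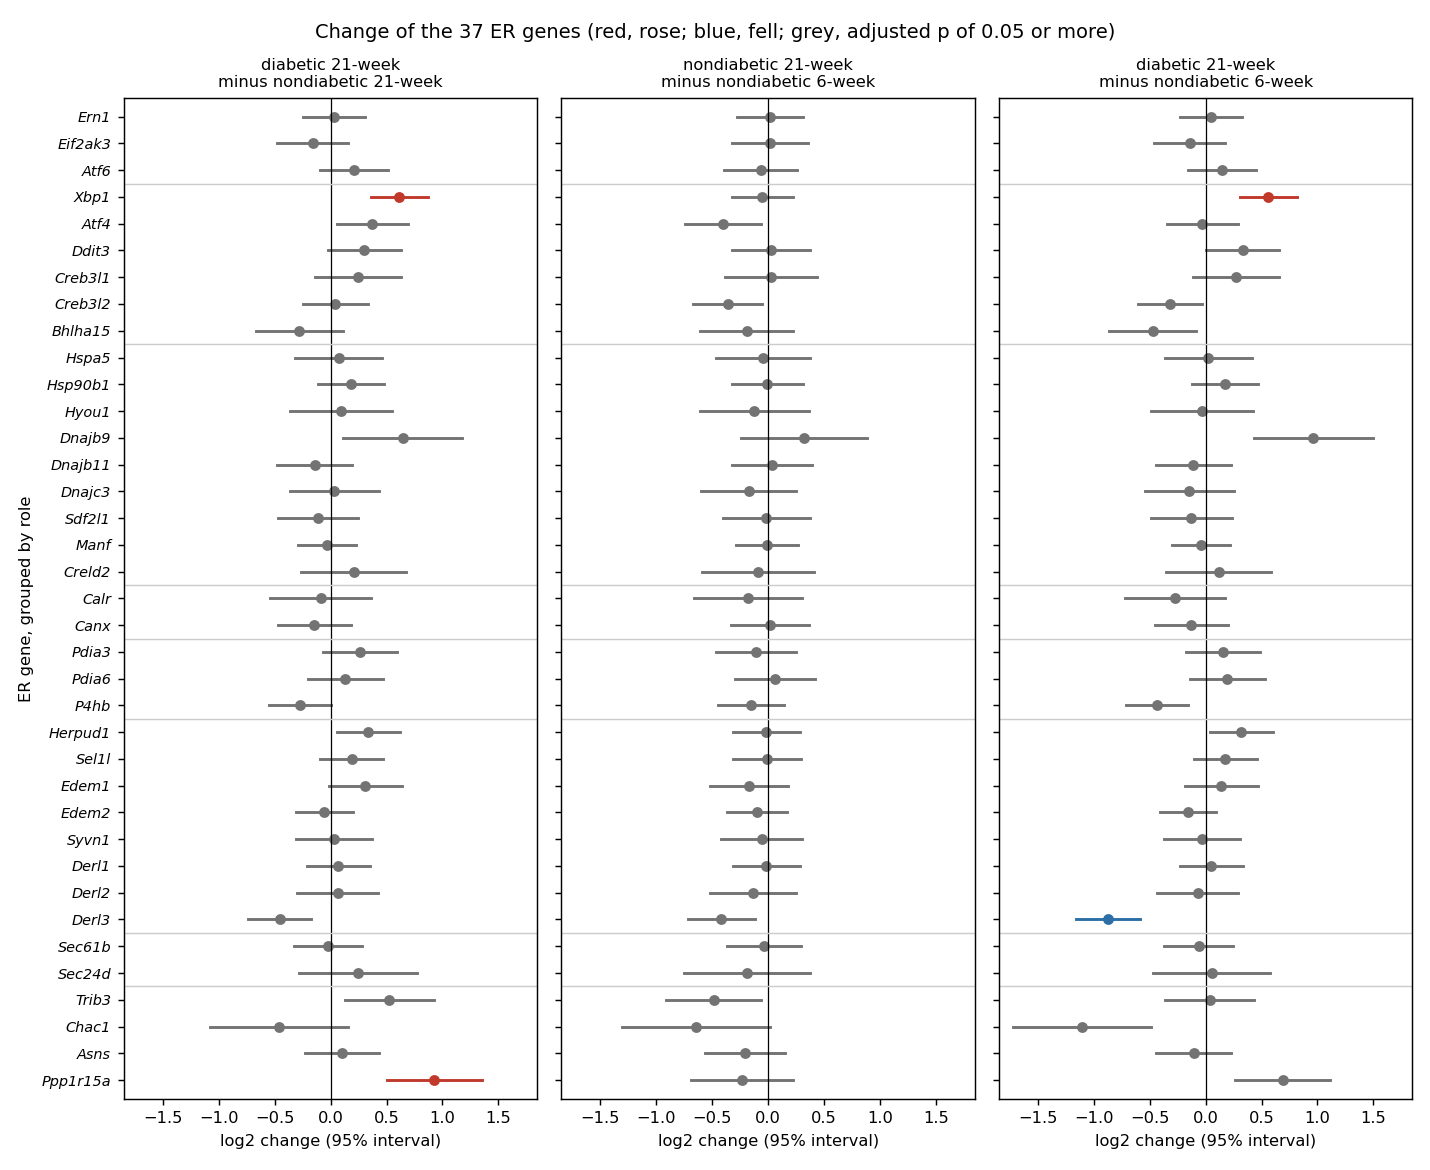
Log2 change of each of the 37 ER genes (rows, grouped by role) with its 95% interval (horizontal bars, from limma) in the 3 comparisons (panels). Red points rose, blue points fell and grey points had an adjusted p of 0.05 or more. Xbp1 is red in the left and right panels, Ppp1r15a in the left, and Derl3 is blue in the right, while the middle panel has no coloured point.

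The 3 sensors did not pass in any comparison. Ern1, which encodes IRE1, differed by 0.03 ± 0.13 (SE) between diabetic and nondiabetic 21-week arrays, with a 95% interval of -0.25 to 0.30. Eif2ak3, which encodes PERK, differed by -0.16 ± 0.15, and Atf6 by 0.21 ± 0.14. All 10 arrays lay within 0.38 of each other for Ern1, within 0.57 for Eif2ak3 and within 0.69 for Atf6.

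Xbp1, which encodes the transcription factor made after IRE1 splices its mRNA, was the transcription factor of the list that rose. Its log2 intensity was 9.28, 9.18, 9.20 and 9.16 in the 4 diabetic arrays, against 8.42, 8.68 and 8.67 in nondiabetic glands of 21 weeks and 8.62, 8.76 and 8.55 in those of 6 weeks. Every diabetic array was above every other array, and the diabetic values were the closest together of the 3 groups (SD 0.054). The rise over nondiabetic 21-week glands was 0.61 ± 0.12, or 1.53-fold (adjusted p = 0.0250, limma), and that over 6-week glands 0.56 ± 0.12, or 1.47-fold (adjusted p = 0.0369). Nondiabetic 21-week and 6-week glands differed by -0.05 ± 0.13. The probe set gives 1 value for the gene, so spliced and unspliced Xbp1 mRNA are not separated. Without the nondiabetic 21-week array that stood apart, the diabetic against nondiabetic 21-week difference was 0.65 with an adjusted p of 0.0616. The call held in 12 of 21 alternative settings against nondiabetic 21-week glands and in 11 of 21 against 6-week glands.

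Of the other 5 transcription factors, none passed. Atf4, whose protein drives the amino acid and redox genes of the PERK branch, had values of 8.0, 7.86, 7.61 and 7.41 in diabetic arrays, against 7.31, 7.43 and 7.30 in nondiabetic 21-week arrays and 7.70, 7.68 and 7.88 in 6-week arrays. Nondiabetic 21-week glands were therefore the low group for Atf4, below every 6-week array and overlapping with the lowest diabetic array alone. The differences were 0.37 ± 0.15 for diabetic against nondiabetic 21-week glands (adjusted p = 0.247, limma), -0.40 ± 0.16 for nondiabetic 21-week against 6-week glands (adjusted p = 0.629) and -0.03 ± 0.15 for diabetic against 6-week glands. Ddit3, which encodes the pro-apoptotic factor CHOP, differed by 0.30 ± 0.15 in diabetic against nondiabetic 21-week glands (adjusted p = 0.355).

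Creb3l2, a membrane-bound factor related to ATF6 that serves ER-to-Golgi transport, was measured at 6.61, 6.61, 6.33 and 6.46 in diabetic arrays, at 6.24, 6.53 and 6.61 in nondiabetic 21-week arrays and at 6.73, 6.79 and 6.95 in 6-week arrays. Both 21-week groups lay below the 6-week arrays without overlap. The difference was -0.32 ± 0.13 for diabetic (adjusted p = 0.277, limma) and -0.36 ± 0.14 for nondiabetic 21-week glands (adjusted p = 0.629), each against 6-week glands. Its relative Creb3l1 differed by 0.25 ± 0.18 in diabetic against nondiabetic 21-week glands. Bhlha15 (Mist1), which sets the secretory architecture of acinar cells, was lower in diabetic than in 6-week arrays without overlap (-0.47 ± 0.18, adjusted p = 0.232). Its lowest value was 6.80, in the fourth diabetic array.

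**Figure D2:**
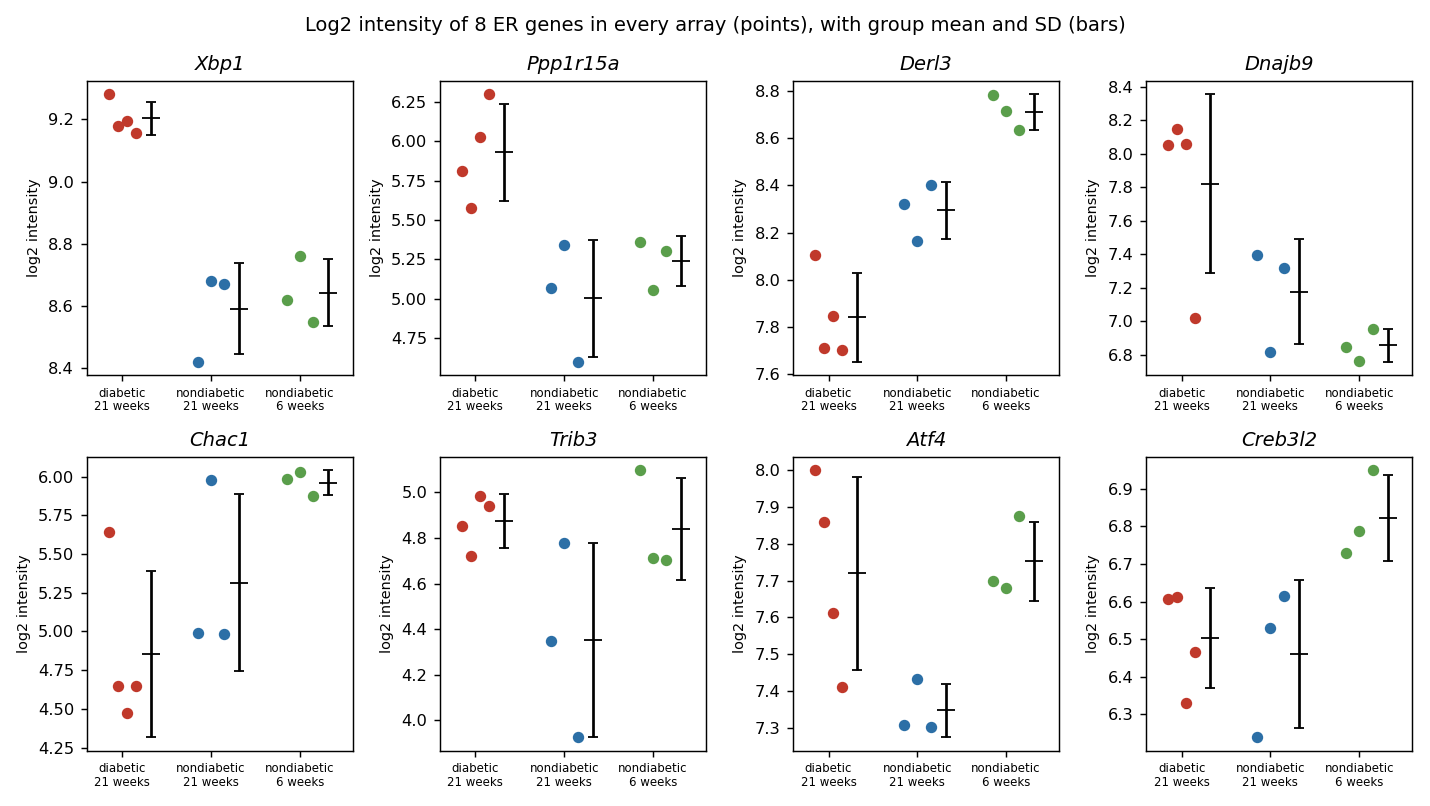
Log2 intensity (vertical axes) of 8 ER genes in each array (points), by group from left to right (diabetic 21 weeks, nondiabetic 21 weeks, nondiabetic 6 weeks), with the group mean and SD (bars). Xbp1 separates the diabetic arrays from all others, Derl3 steps down from right to left without overlap, and Dnajb9 has 3 diabetic arrays above 8 and 1 at 7.02. Each panel has its own scale, which does not start at 0.

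The chaperones of the Hsp70 and Hsp90 system, 9 of the genes measured, gave 0 that rose and 0 that fell in any comparison. Hspa5 encodes BiP, the main ER Hsp70 and the classical marker of ER stress. Its level was 8.29, 7.93, 7.87 and 7.43 in diabetic arrays, against 7.59, 7.79 and 8.05 in nondiabetic 21-week arrays and 7.81, 7.84 and 7.92 in 6-week arrays. The diabetic arrays reached above and below both nondiabetic groups, and the difference from nondiabetic 21-week glands was 0.07 ± 0.18, with a 95% interval of -0.32 to 0.46. A doubling lies outside that interval. Hsp90b1, the ER Hsp90 also called GRP94, differed by 0.18 ± 0.14 and Hyou1, an ER nucleotide exchange factor, by 0.09 ± 0.21.

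Dnajb9, a J-domain co-chaperone of BiP (ERdj4) that also represses IRE1, had the largest differences of this set. It was measured at 8.06, 8.15, 8.06 and 7.02 in diabetic arrays, against 7.39, 6.82 and 7.32 in nondiabetic 21-week arrays and 6.85, 6.76 and 6.96 in 6-week arrays. The first 3 diabetic arrays were above all others, and the fourth lay within the nondiabetic 21-week range. With all arrays the difference was 0.64 ± 0.24 over nondiabetic 21-week glands (adjusted p = 0.233, limma) and 0.96 ± 0.24 over 6-week glands (adjusted p = 0.0781). Without the fourth diabetic array it was 0.91 (adjusted p = 0.0154) and 1.23 (adjusted p = 0.00418), so the call turned on that 1 array. The array was picked from the values of Dnajb9 itself, so the larger differences follow from the choice and are no separate support.

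The other co-chaperones and folding factors were Dnajb11 and Dnajc3, which are J-domain partners of BiP, Sdf2l1, a partner of Dnajb11, and the ER stress-induced proteins Manf and Creld2. Their differences between diabetic and nondiabetic 21-week glands ran from -0.14 ± 0.15 (Dnajb11) to 0.21 ± 0.22 (Creld2). The lectin chaperones calreticulin (Calr, -0.09 ± 0.21) and calnexin (Canx, -0.15 ± 0.15) did not pass either. The disulfide isomerases Pdia3 (0.27 ± 0.15) and Pdia6 (0.13 ± 0.15) had estimates above 0.

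P4hb, which encodes protein disulfide isomerase itself, had estimates below 0. It measured 9.86, 9.73, 9.57 and 9.49 in diabetic arrays, against 9.84, 9.87 and 10.12 in nondiabetic 21-week arrays and 10.07, 10.10 and 10.12 in 6-week arrays. All diabetic arrays were below all 6-week arrays. The difference of -0.43 ± 0.13 from 6-week glands had an adjusted p of 0.126, and that of -0.28 ± 0.13 from nondiabetic 21-week glands an adjusted p of 0.315 (limma). With quantile normalization of the deposited values P4hb fell against 6-week glands (-0.51, adjusted p = 0.0451).

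Among the 8 genes of ER-associated degradation, which returns misfolded proteins to the cytosol for destruction, Derl3 fell in diabetic against 6-week glands and the others did not pass in any comparison. Derl3 encodes a derlin, a membrane protein of the export channel that is most abundant in secretory tissue. Its level was 8.10, 7.71, 7.84 and 7.70 in diabetic arrays, against 8.32, 8.16 and 8.40 in nondiabetic 21-week arrays and 8.78, 8.72 and 8.63 in 6-week arrays. The 3 groups formed a staircase without overlap, diabetic lowest and 6-week highest. Derl3 was 1 of 55 genes with that order among the 18826 (0.292%), and no other ER gene had it. Only this order, the one Derl3 shows, was counted, so its rarity is no separate support.

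The Derl3 difference of diabetic from 6-week glands was -0.87 ± 0.13, or 1.83-fold lower, with an adjusted p of 0.00713 by limma. It held in 21 of 21 alternative settings, with adjusted p from 0.00232 to 0.0448. Each of the steps was of similar size, -0.46 ± 0.13 for diabetic against nondiabetic 21-week glands (adjusted p = 0.114) and -0.42 ± 0.14 for nondiabetic 21-week against 6-week glands (adjusted p = 0.572), and neither passed. Of the 21 alternatives, quantile normalization was the only one in which the diabetic against nondiabetic 21-week step passed (-0.54, adjusted p = 0.0492). The call of that comparison was then 0 that rose and 1 that fell.

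Derl3 is also known from plasma cells. The 9 plasma cell genes measured, Derl3 included, averaged 5.39, 5.37, 5.98 and 6.87 in diabetic arrays, against 5.33, 5.45 and 5.22 in nondiabetic 21-week and 5.12, 4.92 and 4.88 in 6-week arrays. Their sums were 48.3 to 61.8 in diabetic, 47.0 to 49.1 in nondiabetic 21-week and 43.9 to 46.0 in 6-week arrays. The third and the fourth diabetic arrays were above all others, and the other diabetic arrays overlapped with the nondiabetic 21-week arrays. In diabetic against nondiabetic 21-week glands 0 of the 9 passed, with differences from -0.46 (Derl3) and -0.11 (Sdc1) to 1.6 (Jchain). In diabetic against 6-week glands Jchain and Ighm rose, Derl3 fell and 6 did not pass. The part of plasma cells in the Derl3 result was not tested.

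The other degradation genes lay closer together. Herpud1, an ER stress-induced scaffold of the ubiquitin ligase complex, was 9.26, 9.19, 9.47 and 9.05 in diabetic arrays, against 9.06, 8.87 and 8.79 in nondiabetic 21-week and 8.88, 9.01 and 8.88 in 6-week arrays. Diabetic arrays were above all 6-week arrays and overlapped with 1 nondiabetic 21-week array. The differences were 0.34 ± 0.13 (adjusted p = 0.239, limma) and 0.32 ± 0.13 (adjusted p = 0.267). Sel1l and Syvn1, the core of that ligase, differed by 0.19 ± 0.13 and 0.03 ± 0.16 between diabetic and nondiabetic 21-week glands. Edem1 and Edem2, which route glycoproteins to degradation, differed by 0.31 ± 0.15 and -0.06 ± 0.12, and the derlins Derl1 and Derl2 by 0.07 ± 0.13 and 0.06 ± 0.17. Derl3 thus stood alone among the derlins in having groups without overlap. Sec61b, a translocon subunit, and Sec24d, a coat protein of vesicles leaving the ER, differed by -0.02 ± 0.14 and 0.24 ± 0.24.

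The 4 PERK-ATF4 targets went different ways. Ppp1r15a encodes GADD34, which brings protein phosphatase 1 to eIF2-alpha and so ends the translation block. It measured 5.81, 5.58, 6.03 and 6.30 in diabetic arrays, against 5.07, 5.34 and 4.60 in nondiabetic 21-week arrays and 5.36, 5.06 and 5.30 in 6-week arrays. Every diabetic array was above every other array, though the gap between the closest arrays was small beside the spread within groups. Ppp1r15a rose by 0.93 ± 0.20 over nondiabetic 21-week glands, or 1.90-fold (adjusted p = 0.0388, limma). The 0.69 ± 0.20 over 6-week glands did not pass (adjusted p = 0.116). Without the nondiabetic 21-week array that stood apart the rise shrank to 0.73 (adjusted p = 0.149), and without the fourth diabetic array to 0.80 (adjusted p = 0.0679), and the call held in 9 of 21 alternative settings.

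Trib3, a pseudokinase that dampens this response, was 4.85, 4.72, 4.98 and 4.94 in diabetic arrays, against 4.35, 4.78 and 3.93 in nondiabetic 21-week and 5.10, 4.71 and 4.70 in 6-week arrays. It was lowest in nondiabetic 21-week glands, as Atf4 was, with differences of 0.52 ± 0.18 in diabetic against nondiabetic 21-week glands (adjusted p = 0.196, limma) and -0.49 ± 0.20 in nondiabetic 21-week against 6-week glands (adjusted p = 0.629). Chac1, a glutathione-degrading enzyme, was 5.65, 4.65, 4.47 and 4.65 in diabetic arrays, against 4.99, 5.98 and 4.98 in nondiabetic 21-week and 5.98, 6.03 and 5.87 in 6-week arrays. It was lower in diabetic than in 6-week glands without overlap (-1.11 ± 0.28, adjusted p = 0.0801), while 1 nondiabetic 21-week array sat at the 6-week level. Without the first diabetic array, the highest of its group, the difference was -1.37 (adjusted p = 0.0181). That array was picked from the values of Chac1 itself, so the larger difference follows from the choice and is no separate support. Asns, asparagine synthetase, differed by 0.10 ± 0.15 between diabetic and nondiabetic 21-week glands and by -0.21 ± 0.16 between nondiabetic 21-week and 6-week glands, and those nondiabetic groups did not overlap.

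Ppp1r15a is a gene that responds to many acute signals, and so are the immediate-early genes. The 13 immediate-early genes measured (Fos, Jun and Egr1 among them) summed to 100.3 to 106.5 in diabetic arrays, against 86.1 to 89.8 in nondiabetic 21-week and 85.1 to 89.4 in 6-week arrays, and 12 of 13 rose in diabetic glands against each group. The fourth diabetic array was highest on that list (mean 8.19) and for Ppp1r15a. Such genes also rise when tissue is digested, and their part in the Ppp1r15a result was not tested.

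**Figure D3:**
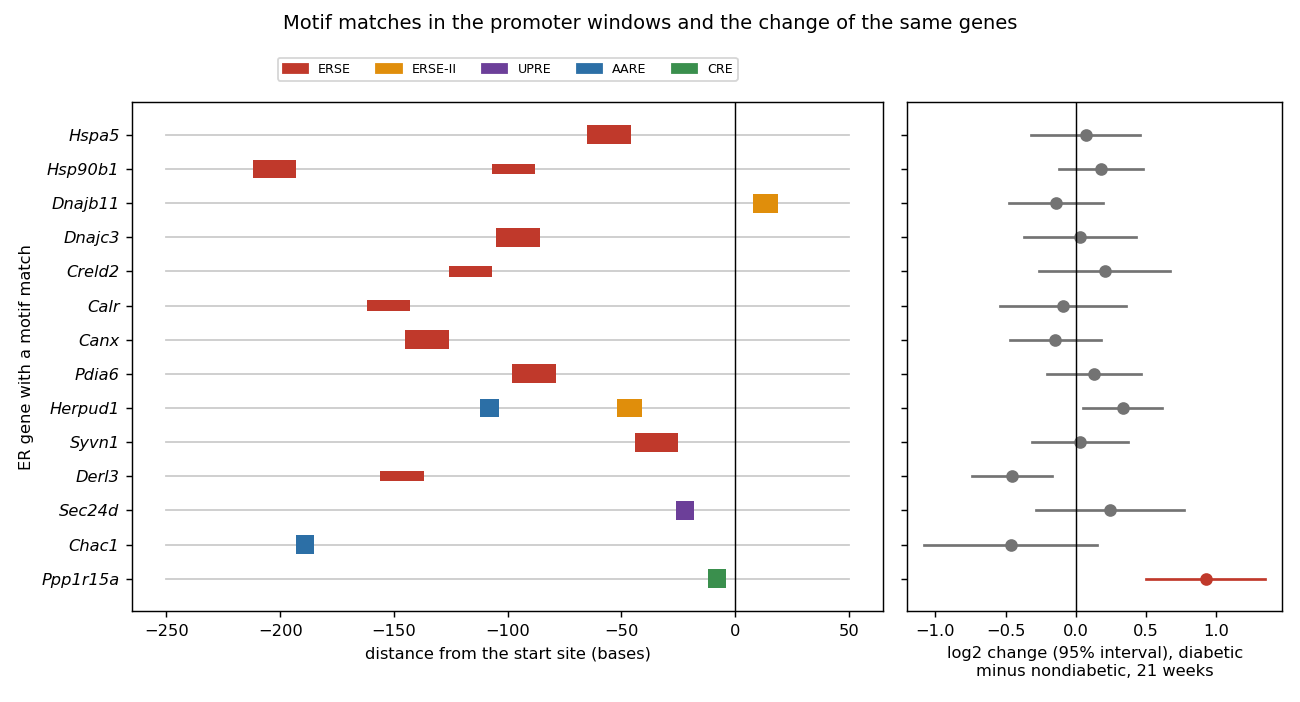
Left, matches of 5 motifs (boxes, tall on the gene's strand and low on the opposite strand) by distance from the start site in bases, in the promoter windows of the 14 measured ER genes with any match. Right, log2 change of the same genes in diabetic against nondiabetic 21-week glands with its 95% interval. The red point, Ppp1r15a, rose, and genes with an ERSE (red boxes) lie on both sides of 0.

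Split by promoter letters, the 11 measured genes with an ERSE or ERSE-II in the window had a median difference of 0.03 between diabetic and nondiabetic 21-week glands, with 0 that rose, 0 that fell and 7 estimates above 0. The 21 genes with a window but neither element had a median of 0.10, with 2 that rose (Xbp1 and Ppp1r15a) and 14 estimates above 0. In diabetic against 6-week glands the medians were -0.03 for each, and the gene that fell, Derl3, has an ERSE in the stretch printed above. The 5 genes without a window in the table were Atf6, Creb3l1, Hyou1, Manf and Derl1.

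Within the diabetic group the ER genes differed from array to array in a shared order. The first diabetic array was the highest of its group for 26 of the 37 genes (70.3%), against 26.0% of all genes, and the fourth was the lowest for 27 (73.0%), against 31.6%. The mean over the 37 genes was 7.45, 7.27, 7.18 and 6.96 in the 4 diabetic arrays, against 7.0, 7.15 and 7.17 in nondiabetic 21-week and 7.19, 7.22 and 7.24 in 6-week arrays. The diabetic arrays therefore ranged above and below both other groups, while the 6-week arrays lay close together. The median SD of an ER gene was 0.26 in diabetic, 0.17 in nondiabetic 21-week and 0.09 in 6-week arrays. For all genes it was 0.18 in diabetic, 0.19 in nondiabetic 21-week and 0.15 in 6-week arrays. The SD was largest in the diabetic group for 22 of 37 (59.5%), against 35% of all genes.

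Other genes of the secretory pathway had the same order of diabetic arrays, so it was not particular to the 37. The 27 other ER folding enzymes averaged 6.51, 6.39, 6.25 and 5.92 in the diabetic arrays, the 31 translocon, signal peptidase and glycosylation genes 7.69, 7.62, 7.49 and 7.25, and the 32 ER-to-Golgi transport genes 7.04, 6.90, 6.80 and 6.43. The 21 other degradation genes averaged 6.96, 6.91, 6.82 and 6.69.

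The 9 chaperones of the Hsp70 and Hsp90 system showed the same order, with means of 7.62, 7.47, 7.25 and 6.94 in the diabetic arrays. The fourth diabetic array also had the highest lymphocyte markers. Its mean over 6 B cell genes was 5.86, against 3.94 to 4.34 in the other diabetic arrays, 3.74 to 4.46 in nondiabetic 21-week and 3.47 to 3.59 in 6-week arrays. Its mean over 7 T cell genes was 5.58, against 4.31 to 4.43 in the other diabetic arrays, and over 9 plasma cell genes 6.87, against 5.37 to 5.98. Its mean over 7 acinar genes, which include Bhlha15 of the ER list, was 9.59, against 9.92 to 10.06. The part of these cells in the low ER levels of that array was not tested. That array was singled out as the lowest of its group for 27 of the 37 genes, so leaving it out raises their values by that choice. Without it the median difference of the 37 genes from nondiabetic 21-week glands was 0.21, against 0.04 for all genes, with 28 estimates above 0. Then 2 genes passed the threshold, Xbp1 and Dnajb9 (5.41%, against 1.42% of all genes), and 9 (24.3%) had an unadjusted p under 0.05, against 16.1% of all genes.

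**Figure D4:**
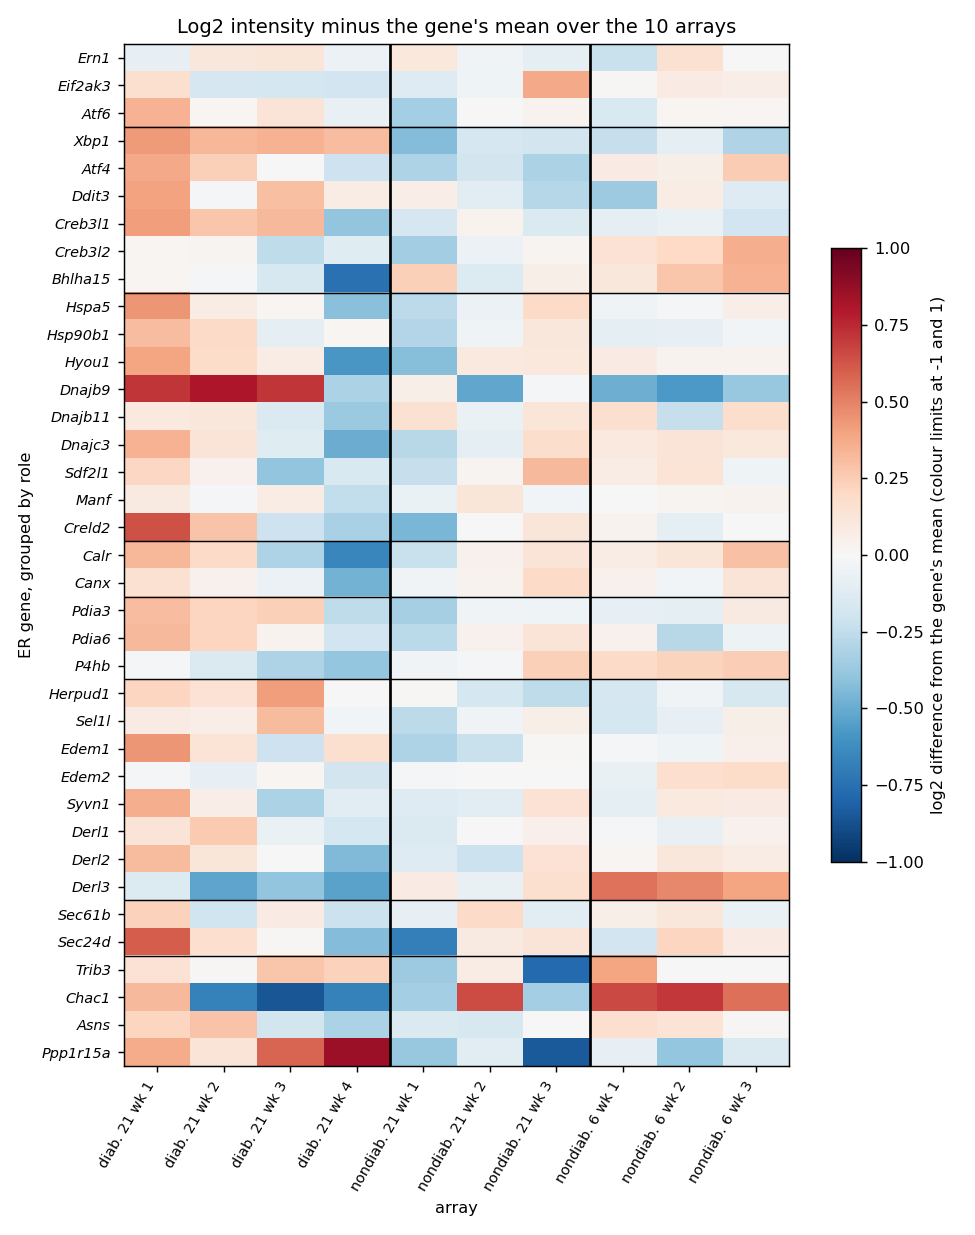
Log2 intensity of each of the 37 ER genes (rows, grouped by role) in each array (columns, diabetic then nondiabetic 21 weeks then nondiabetic 6 weeks), as the difference from the gene's mean over 10 arrays (colour, red higher and blue lower). The column of the first diabetic array is mostly red and that of the fourth mostly blue, while Xbp1 and Ppp1r15a are red across all 4 diabetic arrays.

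**Figure D5:**
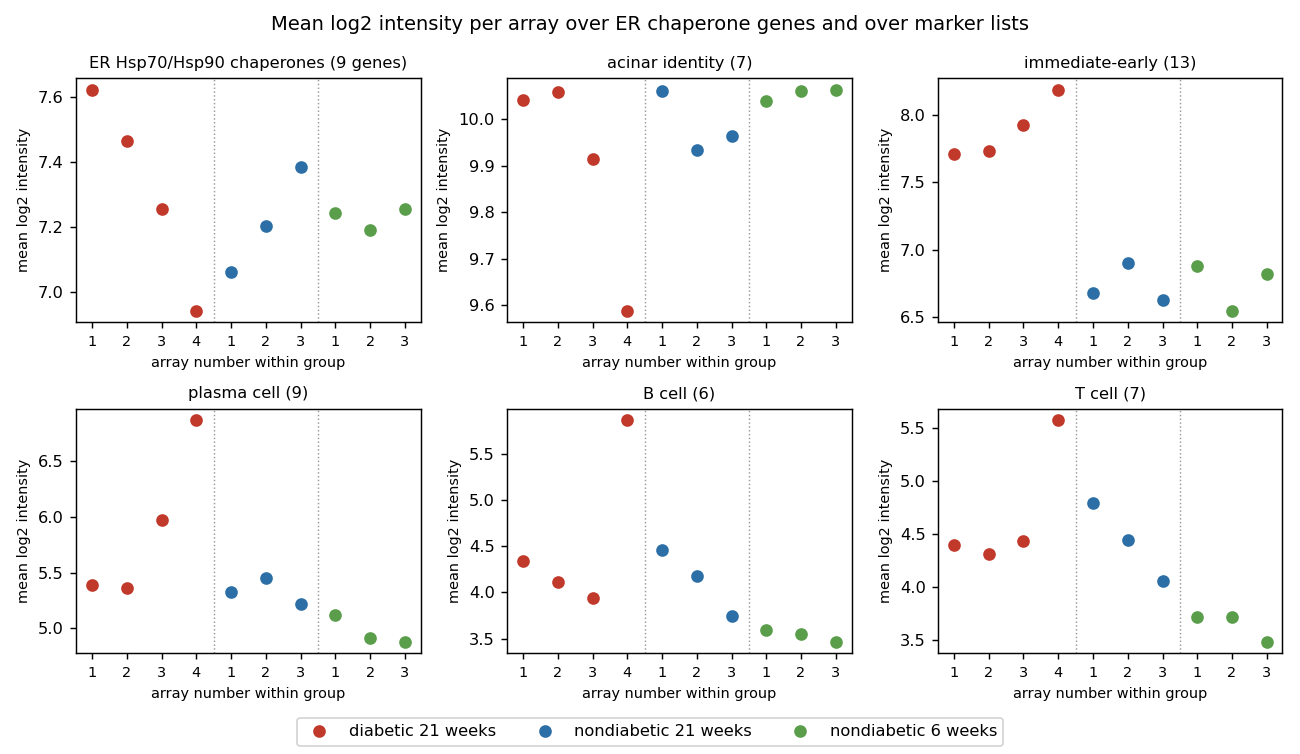
Mean log2 intensity per array (points, numbered within group) over the 9 ER chaperones of the Hsp70 and Hsp90 system and over 5 marker lists, with the number of genes in each panel title. In the fourth diabetic array the chaperones and acinar genes are lowest and the B cell, T cell and plasma cell genes highest, and all 4 diabetic arrays lie above the rest for immediate-early genes.

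Beyond the listed genes, 153 further genes of ER folding, degradation, stress signalling, glycosylation and transport were measured. In diabetic against nondiabetic 21-week glands 5 of the 153 rose and 0 fell (3.27%, against 1.44% of all genes, 1.1% higher and 0.34% lower). They belong to 2 of the 6 lists, 2 of 17 other regulators of the unfolded protein response and 3 of 26 other targets of the integrated stress response, the programme driven by ATF4. Atf3, a stress-induced factor that is also on the immediate-early list, rose by 1.39 ± 0.16 (adjusted p = 0.000874, limma), and Hspb8, a small heat shock protein, by 1.26 ± 0.24 (adjusted p = 0.0229). Atf5, a factor related to ATF4, rose by 1.04 ± 0.17 (adjusted p = 0.0115). Pck2, the mitochondrial phosphoenolpyruvate carboxykinase, rose by 0.78 ± 0.12 (adjusted p = 0.00734), and Slc7a5, an amino acid transporter, by 0.75 ± 0.14 (adjusted p = 0.0206). None of the 27 other folding enzymes, 21 other degradation genes, 31 translocon, signal peptidase and glycosylation genes or 32 transport genes passed. The count of 5 became 11 without the fourth diabetic array (1.42% of all genes) and 2 without the third nondiabetic 21-week array (0.446% of all genes). It was 3 without the first nondiabetic 21-week array (0.861%) and without the third diabetic array (0.505%). The fourth diabetic array had the lowest mean of its group on each of the 6 lists, so leaving it out tends to raise these differences.

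In diabetic against 6-week glands Atf3 (1.49 ± 0.16, adjusted p = 0.00137, limma) and Dnajc10 rose and Gpt2 fell among the 153 (1.96%, against 1.44% of all genes), a share near the background. Dnajc10 is an ER disulfide reductase of the degradation pathway, and its level was 8.03, 7.94, 7.90 and 6.65 in diabetic arrays, against 5.51, 6.92 and 5.50 in nondiabetic 21-week and 5.75, 6.24 and 5.51 in 6-week arrays. As for Dnajb9, the first 3 diabetic arrays were high and the fourth lower. The rise over 6-week glands was 1.80 ± 0.38 (adjusted p = 0.0379). Gpt2, the mitochondrial alanine aminotransferase, fell by 0.75 on the log2 scale, with an SE of 0.15 (adjusted p = 0.0327). The count of 3 became 5 without the fourth diabetic array (1.39% of all genes) and 1 without the third diabetic array (0.483%) or any 1 of the 6-week arrays (0.255% to 0.521%). Here too, leaving out the fourth diabetic array tends to raise the differences.

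For the integrated stress response targets, the mean over 26 genes was 6.24, 6.19, 6.23 and 6.08 in diabetic arrays, against 5.84, 6.07 and 5.91 in nondiabetic 21-week and 6.32, 6.26 and 6.30 in 6-week arrays. In nondiabetic 21-week against 6-week glands 0 of 26 passed by limma, 14 were lower and 0 higher at an unadjusted p under 0.05, against 5.27% and 2.19% of all genes, and 16 were lower without overlap, against 9.73%. The median difference was -0.36, against -0.06 for all genes. In diabetic against nondiabetic 21-week glands 11 of 26 were higher at an unadjusted p under 0.05, against 10.8% of all genes, with a median of 0.25. Both comparisons use the same 3 nondiabetic 21-week arrays. Without the array of these that stood apart, 13 were lower in the first comparison (3.15% of all genes) and 7 higher in the second (6.36%). Without the first nondiabetic 21-week array 9 were lower in the first comparison (6.76% of all genes) and 5 higher in the second (12.1%). Without the first 6-week array 9 were lower (3.8%), and without the first diabetic array 7 were higher (10.4%). With quantile normalization 10 were lower (3.87%) and 6 higher (7.2%), and with median centring 10 were lower (3.54%) and 6 higher (7.6%).

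Slc7a5 was measured at 8.08, 7.70, 8.26 and 8.11 in diabetic arrays, against 7.22, 7.33 and 7.32 in nondiabetic 21-week and 7.93, 8.02 and 8.09 in 6-week arrays. The group mean was lowest in nondiabetic 21-week glands for 18 of the 26 targets (69.2%), Slc7a5 among them, and for 20 of the 37 ER genes (54.1%), against 41.6% of all genes.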

How the data were processed

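RNA from 10 samples of salivary gland cells was measured on Affymetrix microarrays. Per the submitters' processing notes, the authors used RMA (Affymetrix Power Tools), and the table they deposited holds a log2 intensity for each of 41345 probe sets. Software versions and settings were not stated there. RMA sets the arrays to a common scale, so differences are relative to the rest of each array. No scan date or other batch is labelled. Precision is set by how few arrays there are. Samples were grouped by their labels.

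Probe sets with 1 gene symbol (23521, covering 22180 symbols) were kept if 3 or more arrays exceeded their own 25th percentile, and each gene was read from its brightest probe set. Group means were fitted over all 10 arrays with limma 3.58.1 (R 4.3.3, 7 residual and 5.61 prior degrees of freedom), after the fit had been tested on simulated data. P-values are two-sided, with Benjamini-Hochberg adjustment over 18826 genes. A gene rose or fell where the adjusted p was under 0.05. Errors of differences are SEs from a spread per gene that the 3 groups share, so those between the nondiabetic groups also carry the diabetic spread.

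The ER genes and all other lists were chosen with earlier results of these data known. Values in every array are given for genes past the threshold in any comparison and for the 4 with the smallest p where fewer passed. Hspa5, P4hb and Herpud1 were added after their values were seen, as were Dnajc10 and Slc7a5 among the pathway genes that passed. Promoter windows and names are from RefSeq (GRCm38.p6). The 21 alternatives changed the filter, the probe set rule, the samples fitted, the variance model, array weights, scaling, the replicate block and the arrays left out. A stricter threshold was also tried.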

Additional observations from a re-analysis of the deposited data

Results flagged for a closer look

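In the group of 4 diabetic arrays, 4 of the 37 ER genes (10.8%) had 1 array far from the other 3, by the gap to the nearest array as a share of the group's range. Chance gives such a gap in about 1 group in 20 when groups are independent. These genes were read from the same 4 arrays, of which array 1 was highest for 26 and array 4 lowest for 27 of the 37. The share over all genes was not counted, so no excess over chance can be read from the 10.8%. The lowest value of Dnajb9, 7.02 in diabetic array 4, lay below 8.06 to 8.15 in the others, and that of Pdia3, 7.69 in the same array, below 8.17 to 8.26. The highest value of Eif2ak3, 7.67 in diabetic array 1, lay above 7.32 to 7.34, and that of Chac1, 5.65 in the same array, above 4.47 to 4.65. Diabetic array 4 also had the highest lymphocyte markers, and their part in these values was not tested.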

How the results depend on the processing

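Of 2499 single-gene results under the alternatives, 2429 stayed on their side of the threshold, 55 lost the call, 13 gained one and 2 reversed. Most of the 2499 were of genes not called with the main settings, which had no call to lose, so the 2429 do not measure how stable the calls were. A change of sign counted as reversed only where the gene was called or its main difference exceeded its SE. Smaller differences that changed sign are among the 2429. In diabetic against nondiabetic 21-week glands the 2 ER genes called became 0 with only the arrays of the 2 groups compared and at an adjusted p under 0.01, and 1 with quantile normalization (Derl3, lower, in place of Xbp1 and Ppp1r15a) or median centring (Ppp1r15a). Leaving out 1 array gave 0 to 2. Xbp1 kept its call in 12 of 21 alternatives (adjusted p 0.00622 to 0.0876, limma) and lost it without diabetic array 1 (0.0582), 2 (0.0609) or 3 (0.0809) and without nondiabetic 21-week array 1 (0.0817) or 3 (0.0616). Ppp1r15a kept it in 9 of 21 (0.0265 to 0.149) and lost it without diabetic array 1 (0.0613), 3 (0.117) or 4 (0.0679), nondiabetic 21-week array 1 (0.0794) or 3 (0.149) and 6-week array 1 (0.0527) or 3 (0.0625). In diabetic against 6-week glands the 2 calls became 4 with array weights (Xbp1, Dnajb9, Derl3 and Chac1), 1 with median centring and 1 at an adjusted p under 0.01 (Derl3 in both), and 1 to 3 with 1 array left out. Derl3 kept this call in 21 of 21 alternatives, and Xbp1 in 11 of 21 (0.0114 to 0.163). In nondiabetic 21-week against 6-week glands 0 ER genes were called in every alternative.

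Diabetic array 4 was the lowest of its group for most ER genes, so leaving it out tends to raise their median. Without nondiabetic 21-week array 3 and diabetic array 4 together, the median of the ER genes in diabetic against nondiabetic 21-week glands was 0.29 and Eif2ak3 reversed to 0.026. Quantile normalization turned that median to -0.03, with all genes at -0.02. Sec24d in that comparison ranged from -0.019, without nondiabetic 21-week array 1, to 0.42 with 1 array left out. Over all genes, that comparison had 271 calls and 84 (without nondiabetic 21-week array 3) to 378 (trended variance) under the alternatives, diabetic against 6-week glands had 272 and 48 (without 6-week array 3) to 672 (array weights), and nondiabetic 21-week against 6-week glands had 5 and 0 to 39. The labels number the arrays within each group, but same-numbered arrays did not deviate together (correlations -0.118 to 0.066), so no pairing by number was seen. Deviations over all genes from the means of so few arrays cannot exclude a pairing. With the replicate block, which sets aside diabetic array 4 for want of a partner, 1 ER gene was called in diabetic against nondiabetic 21-week glands (Dnajb9), 2 in diabetic against 6-week glands (Dnajb9 and Derl3) and 0 between the nondiabetic groups. The cause of these shifts was not tested.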

Other observations

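Edem1, Derl2 and Sec61b each had a second, dimmer probe set. The brighter Edem1 probe set differed by 0.31 and the dimmer one by -0.08 between diabetic and nondiabetic 21-week glands. For Sec61b the values were -0.02 and -0.19, and for Derl2 0.06 and 0.01.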
